A study of Danio rerio with 6 samples.

Results

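Ubiquitin-specific proteases (USPs) are the largest family of enzymes that take ubiquitin off other proteins. Their genes were examined in zebrafish tails with and without a homozygous mutation in *prpf31*, the gene for the splicing factor Prpf31. Members were the genes whose symbol in the count files begins with *usp* and a digit, leaving out *usp39*, which codes for a spliceosome protein. This gave 45 of 36155 genes, all annotated as protein coding and spread over 22 chromosomes. One of them, *usp6nl*, belongs by name only, since it codes for a protein that acts on a small GTPase and not for a protease. USP34 and USP53, written in capitals in the files, fell outside the rule.

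RNA was taken from AB* zebrafish at 36 hours post fertilization (hpf), with 3 libraries from *prpf31*-/- embryos and 3 from *prpf31*+/+ siblings. Both groups came from crosses of heterozygous parents. The mutant allele was made with CRISPR/Cas9 and is predicted to give a truncated protein. Heads were used for genotyping, and the remaining tails, with the aorta-gonad-mesonephros and the caudal hematopoietic tissue, were pooled by genotype. Every embryonic cell of the tail carries the mutation. It is not stated whether the 3 pools of a genotype had different parents, so the p-values measure only the spread between these libraries, which may be technical. In bulk tails, fewer cells of a type and less RNA per cell cannot be told apart.

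Libraries held 21809870 to 23789933 counts. The targeted gene *prpf31* had 844, 850 and 854 counts in siblings and 475, 576 and 535 in mutants, and its log2 fold change was −0.66 with an edgeR adjusted p = 0.00104 and an SE of 0.0842. Mitochondrial genes took 4.19% to 4.35% of counts in siblings and 4.78% to 5.62% in mutants. Muscle, notochord, endothelial and spinal cord markers were all detected. Of 4 red blood cell markers, 2 fell, with summed levels of 1918 to 2292 CPM (counts scaled to a common library size) in siblings and 1134 to 1630 in mutants. Of 3 tested myeloid markers 1 fell (85.03 to 99.92 against 65.5 to 73.22 CPM summed), and of 5 tested head, eye and brain markers 1 fell (18.3 to 22.5 against 15.1 to 15.5 CPM summed). The photoreceptor marker *crx*, the skin marker *cldni* and the neutrophil marker *lyz* were near 0 in both groups. Whether cell composition or the mitochondrial share has a part in the USP values was not tested.

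Ubiquitin is joined to target proteins singly or in chains by a cascade of E1, E2 and E3 enzymes, and the chains send many targets to the proteasome. USPs are cysteine proteases that cut ubiquitin off again, so that a target can be spared, a signal on a histone can be erased or free ubiquitin can be recovered. Usp22 is the protease of SAGA, a coactivator complex of transcription, and removes ubiquitin from histone H2B. Usp5 takes apart chains that are no longer attached to any protein.

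The study followed *usp22* by *in situ* hybridization, quantitative PCR and semiquantitative PCR. The primers of its *usp22* assays are shown because each of those assays reads 1 stretch of the transcript, while the counts add up reads over all its exons. The capitals mark the 18 nt that the reverse primers of the first and second pair have in common.
usp22 qRT-PCR forward: agccaactgcaccataggac
usp22 qRT-PCR reverse: GCGGTGACCCGAGTAAAAct
usp22 probe forward: tgtcacatgtgtggagctcat
usp22 probe reverse: gaGCGGTGACCCGAGTAAAA
usp22 SqRT-PCR forward: gacccgaacacttaggaagca
usp22 SqRT-PCR reverse: agctccagaggaaaggacac
The products of the quantitative PCR and of the hybridization probe thus end within a few bases of each other. The third pair, for the semiquantitative assay, shares no such run with them.

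Levels of different genes were compared as FPKM, counts scaled by gene length and library size, so that long genes do not appear higher. *usp14*, whose product sits on the proteasome, had the highest level of the family, 39.1 ± 0.571 FPKM in siblings and 42.7 ± 2.79 in mutants (SD, n = 3 each). It was followed in siblings by *usp2a* (22.0 FPKM), *usp4* (20.6), *usp9* (16.6), a relative of mammalian USP9X, and *usp7* (16.5). *usp9* and *usp7* differed by less than the spread between libraries. Of the 45 members, 9 were at 10 FPKM or more in siblings, 24 were between 1 and 10 and 12 were under 1. The lowest 5 were *usp46* (0.198 FPKM in siblings), *usp20* (0.181), *usp21* (0.0356), *usp16* (0.0233), most of which lies under another gene model on the same strand, and *usp43a* (0.00816). The 10 members with the highest FPKM were the same in both groups. In 4 cases a number is shared by a pair of genes named a and b. *usp2a* was above *usp2b* (22.0 and 2.29 FPKM in siblings), and *usp12b* above *usp12a* (4.10 and 1.495). A gene model that itself held 1 count in siblings and 0 in mutants, *AL929009.2*, overlaps *usp12a* by 16729 bp on the same strand, and whether reads of *usp12a* were lost to the overlap was not tested. *usp43b* (0.345) was above *usp43a*, and *usp54a* (0.642) above *usp54b* (0.335).

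**Figure D1:**
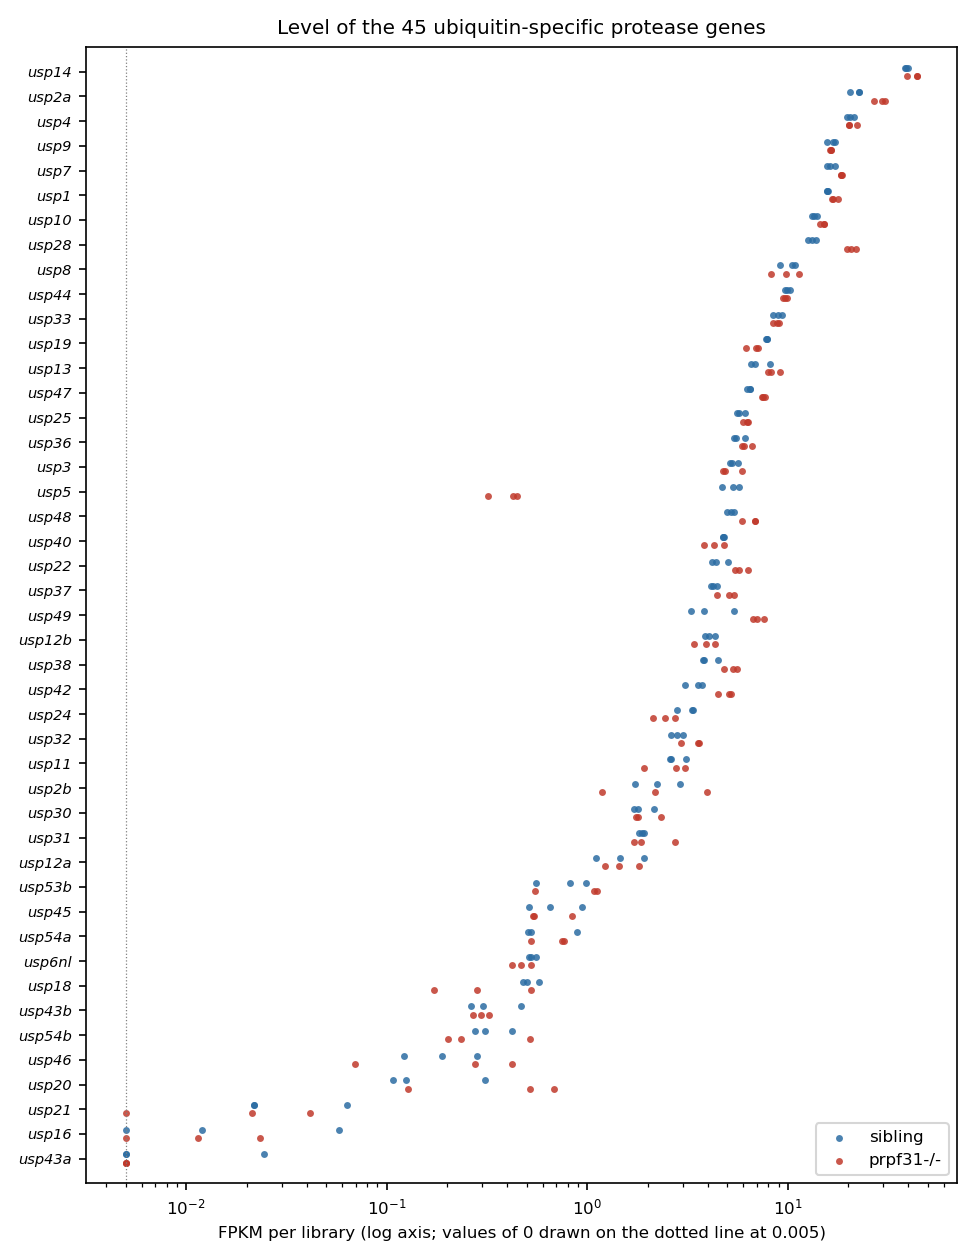
FPKM of the 45 ubiquitin-specific protease genes in each of 3 sibling libraries (blue) and 3 *prpf31*-/- libraries (red), on a log axis and ordered by the sibling mean, with values of 0 placed on the dotted line. In *usp5* the red points lie far to the left of the blue ones, while in most members both colours lie close together.

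Summed over the family, members reached 1519, 1442 and 1442 CPM in the sibling libraries, against 1445, 1604 and 1574 CPM in the mutant ones. The groups overlap in this sum, since mutant replicate 1 lies among the siblings. After the filter on low counts 41 members were tested. The other 4 had few reads in both groups. *usp46* had 4, 6 and 9 counts in siblings and 2, 9 and 14 in mutants. *usp16* had at most 5, *usp21* at most 3 and *usp43a* at most 2 counts in any library, so no difference was detectable in them from these counts. For *usp16* the low count may not measure its expression, since another gene model, *si:dkey-75b17.1*, covers 19393 bp of it on the same strand and held 195 counts summed over the siblings and 110 over the mutants. How reads in that overlap were assigned was not tested.

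In *prpf31*-/- tails 5 tested USP genes rose, 1 fell and 35 did not pass the test. Those that rose were *usp28*, *usp2a*, *usp49*, *usp42* and *usp48*, with changes of 1.25 to 1.69 times, and the one that fell was *usp5*, to 0.0757 of the sibling level. The test was edgeR's quasi-likelihood test of counts with an adjusted p under 0.05 over 21876 genes. Among all of those genes 5.58% were higher and 4.49% lower (10.1% in either direction), against 12.2% and 2.44% of the tested members. Among the 9808 tested genes with a mean of at least 10 CPM, where 27 of the members lie, 9.29% were higher and 5.94% lower. The shares of members given above are of all 41 tested members and not of these 27, so they are not matched to this class. All 5 members that rose are among the 27, while *usp5*, the one that fell, is not. The median log2 fold change was 0.09 over the members and −0.0048 over all genes, and the median absolute log2 fold change was 0.17 and 0.22. The mutant libraries all lay above the sibling libraries in 11 members (26.8%, against 15.2% of all tested genes) and all below them in 3 (7.32%, against 15.4%). The count of members that rose depended on single libraries. It was 3 without sibling replicate 1 or 2, 2 without sibling replicate 3 and 1, *usp28*, without mutant replicate 3. The number of all genes called higher fell in the same fits. It went from 1220 to 666, 705 and 841 without sibling replicate 1, 2 and 3, and to 600 without mutant replicate 3. The drop is thus not particular to the members. *usp24* joined the members that fell when mutant replicate 2 was left out, which gave 2.

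**Figure D2:**
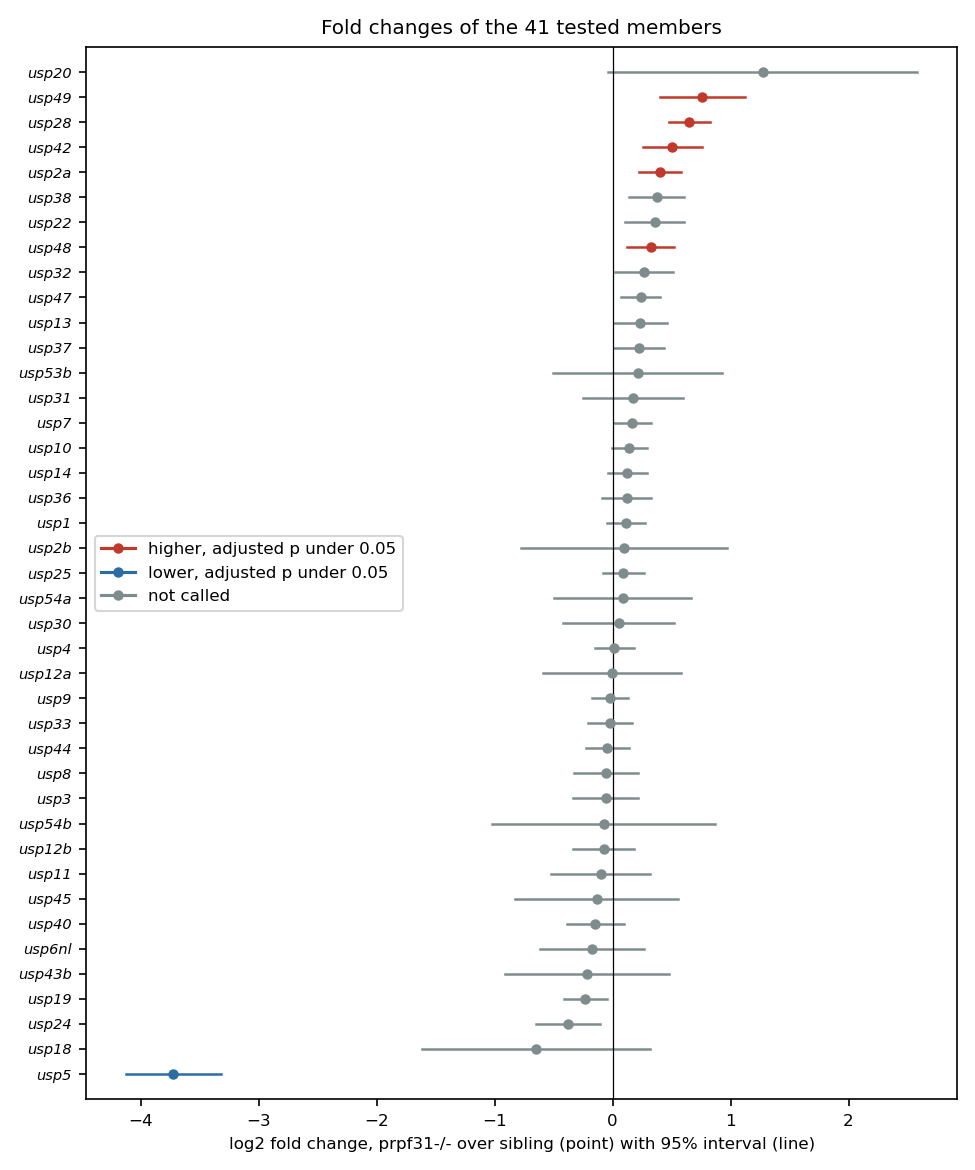
Log2 fold change of *prpf31*-/- over sibling libraries for the 41 tested members (points) with the unadjusted 95% interval (lines), ordered by size, where red marks the 5 members that rose, blue the 1 that fell and grey the rest. *usp5* stands alone at −3.72, and the wide grey lines belong to members with few counts, such as *usp20* and *usp18*.

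*usp5* (ENSDARG00000014517) lies on chromosome 16 of GRCz11 from 11965371 to 11986321, on the minus strand. The sibling libraries held 362, 394 and 429 of its counts and the mutant libraries 29, 34 and 25. Every mutant library was far below every sibling library. The mean level was 17.6 ± 1.75 CPM in siblings and 1.33 ± 0.225 in mutants (SD, n = 3 each). The log2 fold change was −3.72 (95% interval −4.13 to −3.32, SE 0.181), with an edgeR adjusted p = 1.0e-06. By FPKM *usp5* was the 18th of the 45 members in siblings and the 38th in mutants. Among 983 genes called lower it had the 17th largest fold change. The fall passed the test under every alternative that tested the gene and whichever library was left out (log2 fold change −3.82 to −3.59 in those fits).

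*prpf31* lies on the same chromosome as *usp5*, from 32082359 to 32090672, and the gap between both genes is 20.1 Mb. Mutants were sorted by their genotype at *prpf31*, so alleles linked to it may differ between the groups as well. No alleles were examined, so whether they differ as far away as *usp5* was not tested. An effect of such alleles cannot be told apart from an effect of the *prpf31* mutation. Of 891 tested genes on chromosome 16, 9.2% were higher and 14.4% lower, against 5.42% and 4.07% of the genes on other chromosomes. Genes next to *usp5* were low in mutants too. Within 200 kb, a distance chosen after these values were seen, 5 other genes were tested, of which 3 fell and the other 2 did not pass. *p3h3*, which codes for a collagen prolyl hydroxylase and begins 6177 bp from *usp5*, had 147, 95 and 67 counts in siblings and 15, 10 and 13 in mutants (log2 fold change −2.98, adjusted p = 7.1e-04 by edgeR). *pafah1b3* (ENSDARG00000058047), for a subunit of an enzyme that breaks down platelet-activating factor, had 193, 298 and 232 counts in siblings and 3, 3 and 2 in mutants. The chemokine receptor gene *cxcr3.3* had 35, 48 and 36 counts and then 0, 0 and 1. The falls of all 3 genes lie in the same stretch of the chromosome as that of *usp5*. *lpcat3* (log2 fold change −0.02) and a gene without a name (0.15) were the ones that did not pass.

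**Figure D3:**
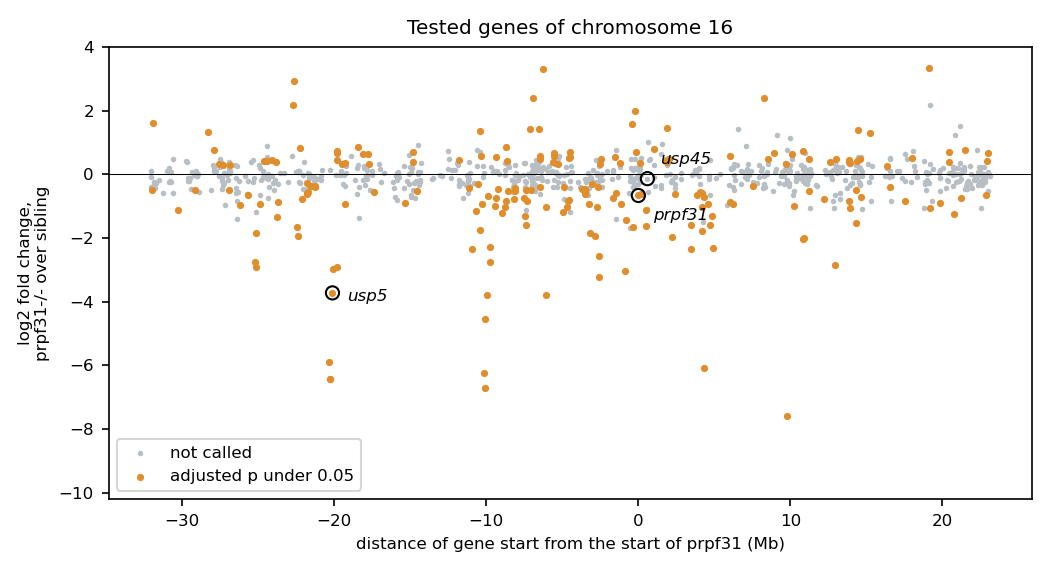
Log2 fold change of every tested gene of chromosome 16 (891 points) against the distance of its start from that of *prpf31* in Mb, with genes past the threshold in orange and *usp5*, *usp45* and *prpf31* ringed. *usp5* sits 20.1 Mb to the left of *prpf31* together with other low points, and *usp45* sits close to 0 on both axes.

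The second member on this chromosome is *usp45*, whose product acts on a DNA repair nuclease in human cells. It begins 0.586 Mb after *prpf31*, so it is far closer to it than *usp5* is. It had 48, 36 and 67 counts in siblings and 35, 61 and 40 in mutants, and these ranges overlap. The log2 fold change was −0.14 with a 95% interval from −0.83 to 0.56, so a change of either direction up to about that size was not detectable. Within 200 kb of *usp45*, 7 other genes were tested, of which 2 were lower and 0 higher, with a median log2 fold change of −0.56. Lower neighbours were thus not particular to *usp5*. Of 77 tested genes that start within 2 Mb of *prpf31*, 14.3% were higher and 13% lower.

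Usp13 and Usp14 work beside Usp5 in handling ubiquitin chains, and their genes did not pass the test. Usp13 is the closest relative of Usp5. *usp13* had 897, 1023 and 828 counts in siblings and 1056, 1031 and 1095 in mutants. Its log2 fold change was 0.24 (95% interval 0.01 to 0.46, adjusted p = 0.175 by edgeR). *usp14* had a log2 fold change of 0.12 (−0.04 to 0.29). In CPM the mutant level of *usp13* was 1.18 times that of siblings, while that of *usp5* was 0.0757 times.

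*usp22* (ENSDARG00000040407) lies on chromosome 12 from 1469090 to 1526051, on the plus strand. Its counts were 449, 360 and 381 in siblings and 428, 560 and 516 in mutants. After normalization the mutant libraries lay at 21.1, 24.5 and 22.1 CPM and the sibling libraries at 19.6, 16.2 and 17.1, so the groups did not overlap and the mutants were the higher ones. The mean was 17.6 ± 1.76 CPM in siblings and 22.6 ± 1.77 in mutants (SD, n = 3 each), which gives a log2 fold change of 0.36 (95% interval 0.11 to 0.61). This did not pass the threshold (unadjusted p = 0.00986, SE 0.112), with an edgeR adjusted p = 0.0755, nor did it under any of the 16 alternatives (log2 fold change 0.29 to 0.44). The interval does not reach below 0, so no fall of *usp22* was found in these tails at 36 hpf. The study reports a lower *usp22* signal in the mutant caudal hematopoietic tissue at a later stage by hybridization. It also reports reduced expression by quantitative PCR and aberrant splicing of the gene. The hybridization differs from the counts in region, stage and assay. The quantitative PCR used dissected tissue with the same regions, at 36 hpf and at a later stage. At 36 hpf it thus shares the regions and the stage with the counts but not the assay, which reads only part of the transcript. Whether it used RNA of the same pools is not stated. The study's text does not say at which stage expression was reduced. The splicing result came from the study's RNA-seq at 36 hpf and from semiquantitative PCR. Whether the counts differ from those results was not tested. The counts add up all isoforms of the gene and do not show how it was spliced. By FPKM *usp22* was 21st of 45 in siblings (4.53 FPKM) and 19th in mutants (5.82).

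Usp22 was placed in a group of 8 members that act on ubiquitin-bearing histones, together with Usp3, Usp16, Usp21, Usp42, Usp44, Usp48 and Usp49. Their roles come from work mostly in human cells. The group is not a full list, and members with such a role may also sit in the other groups. Of the 6 that were tested, 3 rose and the other 3 did not pass, with a median log2 fold change of 0.34. Over all tested genes 5.58% were higher and the median was −0.0048. All 6 have a mean of at least 10 CPM, and among tested genes of that level 9.29% were higher. The members were grouped with these results known, so the count is a description only. Those that rose were *usp49*, *usp42* and *usp48*. *usp49*, which like *usp22* codes for a protease of histone H2B, had 672, 394 and 461 counts in siblings and 765, 820 and 962 in mutants. Sibling replicate 1 stood above its group. The level was 22.6 ± 6.03 CPM in siblings and 38.3 ± 2.74 in mutants (SD, n = 3 each), which gives a log2 fold change of 0.76 with an edgeR adjusted p = 0.0174 and an SE of 0.163. Leaving out sibling replicate 2 (edgeR adjusted p = 0.0546), sibling replicate 3 (0.0645) or mutant replicate 3 (0.0767) ended that call. The gene overlaps *med20* by 191 bp on the same strand, and *med20* was higher too (log2 fold change 0.42, adjusted p = 0.0274 by edgeR). How reads in the overlap were assigned is not stated.

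*usp42*, whose human homolog removes ubiquitin from H2B, had 420, 424 and 351 counts in siblings and 464, 605 and 609 in mutants. All mutant libraries were higher than all sibling libraries. Its log2 fold change was 0.51 with an edgeR adjusted p = 0.0194 and an SE of 0.111, and it no longer passed when sibling replicate 1 (0.0623), sibling replicate 3 (0.0673) or mutant replicate 3 (0.0925) was left out. *usp48*, for a protease that acts on histone H2A in human cells, had 844, 840 and 780 counts in siblings against 836, 1097 and 1118 in mutants, where replicate 1 stood nearest to the siblings. The mean level was 36.5 ± 1.36 CPM in the former and 45.7 ± 3.96 in the latter (SD, n = 3 each). With a log2 fold change of 0.32 (SE 0.0889) and an adjusted p = 0.0470 from edgeR it lay just inside the threshold. Its call held in 1 of the 6 fits without a library, that without mutant replicate 1, and the adjusted p of the others ran up to 0.18. *usp42* overlaps *eif2ak1* by 1245 bp and *usp48* overlaps *zbtb40* by 1073 bp, each on the same strand, and neither neighbour passed the test (log2 fold change 0.32 and 0.29). *usp3* (5.37 FPKM in siblings and 5.18 in mutants) and *usp44* (9.97 and 9.69), which restrains anaphase entry in human cells, did not pass.

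**Figure D4:**
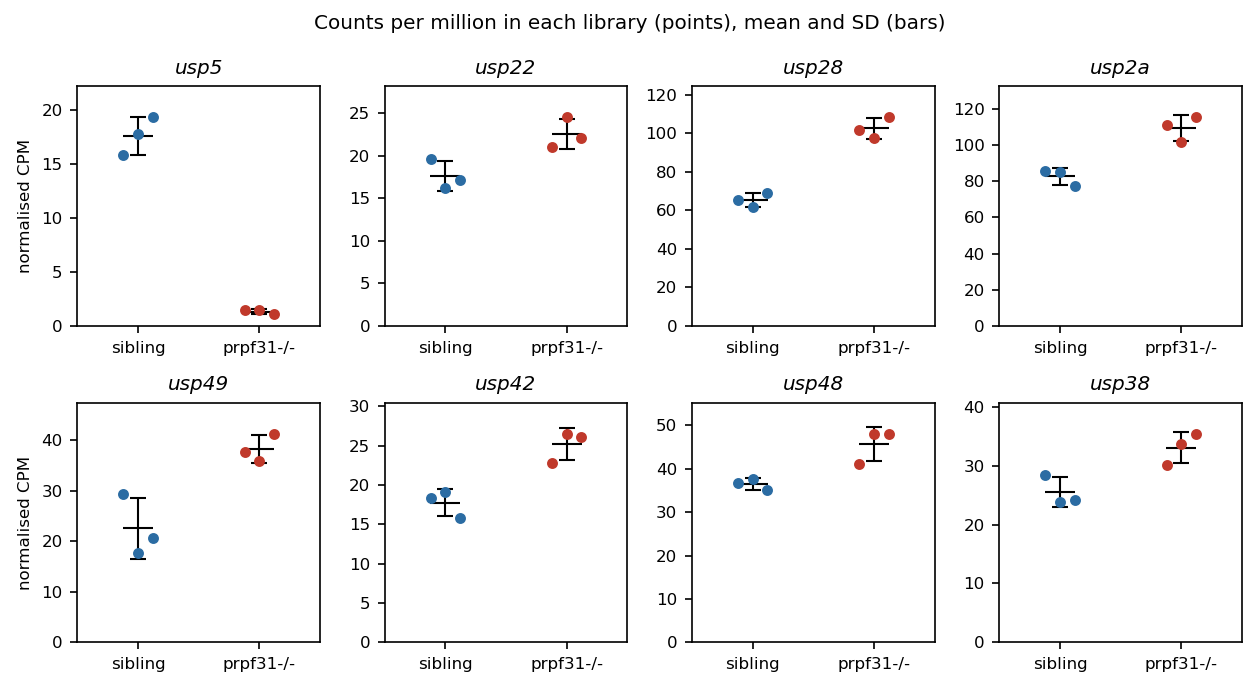
Normalised CPM of 8 USP genes in each of 3 sibling (blue) and 3 *prpf31*-/- libraries (red), with the mean and SD as black bars and every axis starting at 0. The *usp5* panel shows a fall from 17.6 to 1.33 CPM, the other 7 show smaller differences upward, of which those of *usp22* and *usp38* did not pass the test.

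Of 5 members grouped around the ubiquitin ligase MDM2 and the transcription factor MYC, 2 rose and the other 3 did not pass, with a median log2 fold change of 0.17. This group too was formed with the results known, and members with such a role may also sit in the other groups. Among all tested genes 5.58% were higher. Among those with a mean of at least 10 CPM, where all of the group but *usp2b* lie, 9.29% were higher. *usp28*, which protects MYC from degradation in human cells, had 1504, 1375 and 1531 counts in siblings and 2072, 2231 and 2526 in mutants. The lowest mutant library was well above the highest sibling library. The level was 65.4 ± 3.54 CPM in siblings and 103 ± 5.37 in mutants (SD, n = 3 each), which gives a log2 fold change of 0.65 (95% interval 0.48 to 0.82, SE 0.0772), with an edgeR adjusted p = 6.8e-04. This call was kept under all 16 alternatives. *usp2a*, whose human homolog removes ubiquitin from MDM2, had 1966, 1888 and 1722 counts in siblings and 2260, 2320 and 2687 in mutants. Its log2 fold change was 0.40 with an edgeR adjusted p = 0.0114 and an SE of 0.0792, and the call was lost without mutant replicate 3 (0.0731). *usp28* and *usp2a* were the members that rose from the highest levels, 13.3 and 22.0 FPKM in siblings.

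*usp7*, whose product removes ubiquitin from MDM2, had 2823, 2569 and 2492 counts in siblings and 2690, 2978 and 3054 in mutants. After normalization no mutant library lay below a sibling library, yet the log2 fold change of 0.17 (95% interval 0.01 to 0.32, adjusted p = 0.164 by edgeR) did not pass. *usp10*, for a cytoplasmic protease that binds G3BP, had 0.14 (−0.01 to 0.29). The gene *mdm2*, for the target of Usp7, went from 14.9 to 52.2 CPM (log2 fold change 1.87, adjusted p = 7.9e-06 by edgeR).

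Usp1, Usp12 and Usp46 need the partner Wdr48, and Usp1 removes ubiquitin from proteins of DNA repair. Of this group, with *usp45* and *usp47*, none of 5 tested genes passed with edgeR or DESeq2, and 1 had an unadjusted p under 0.05. This group and the next were also formed with the results known. Over all tested genes 10.1% passed with edgeR in either direction, so an absence of calls among so few genes does not set them apart. *usp47*, whose product acts on a repair polymerase in human cells, had 903, 874 and 847 counts in siblings and 917, 1045 and 1093 in mutants (log2 fold change 0.24, 95% interval 0.08 to 0.40, adjusted p = 0.0711 by edgeR). *usp1* had a log2 fold change of 0.11 (−0.05 to 0.27). The partners of Wdr48 had *usp12a* at 91, 67 and 51 counts against 76, 68 and 59, and *usp12b* at 505, 463 and 524 against 373, 480 and 548, with overlapping groups in both. Usp8 on endosomes, Usp19 in the membrane of the endoplasmic reticulum and Usp30 on mitochondria form a further group of 3, in which 0 genes passed with edgeR or DESeq2 and 1 had an unadjusted p under 0.05. *usp19* had 1103, 1077 and 1083 counts in siblings and 771, 967 and 1012 in mutants. All mutant libraries were lower, and the log2 fold change was −0.23 (−0.41 to −0.05, adjusted p = 0.107 by edgeR). *usp8* had 1016, 857 and 1023 counts in siblings and 704, 1095 and 960 in mutants, and *usp30* had 75, 87 and 70 and then 66, 73 and 99. Both overlapped between the groups, with log2 fold changes of −0.06 and 0.05.

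None of the 19 other tested members passed with edgeR, while 4 had an unadjusted p under 0.05 and 1, *usp38*, passed with DESeq2. Over all tested genes 10.1% passed with edgeR in either direction. These members were what the groups above, formed with the results known, left over, so their count is a description only. The 19 members had log2 fold changes from −0.65 to 1.27. Nearest to the threshold on its outer side was *usp38*, with 653, 531 and 538 counts in siblings and 613, 768 and 825 in mutants. Its log2 fold change was 0.37 (95% interval 0.14 to 0.61, adjusted p = 0.0508 by edgeR), and it passed without mutant replicate 1 (0.0320). *usp24* had 655, 534 and 644 counts in siblings and 369, 537 and 487 in mutants. Its groups did not overlap, with the mutants lower. Its log2 fold change was −0.38 (−0.65 to −0.11, adjusted p = 0.0804), and it passed without mutant replicate 2 (0.0470). *usp20* had the largest fitted change upward, 1.27 (95% interval −0.04 to 2.58), from 36, 12 and 14 counts in siblings and 53, 78 and 15 in mutants. The libraries of both groups overlap there. The fitted change was 0.81 without mutant replicate 2 and 1.91 without sibling replicate 1, the ends of the range over the 6 fits without a library, and 0.27 with limma on log2(FPKM + 1) without a filter. *usp18*, whose product removes the ubiquitin-like ISG15 from proteins in mammals, had the lowest fitted change among those that did not pass, −0.65 (−1.62 to 0.32), from 19, 19 and 22 counts in siblings and 6, 11 and 21 in mutants.

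The well-expressed members of this remainder gave narrower intervals. *usp9* had 3845, 3607 and 3423 counts in siblings and 3241, 3613 and 3711 in mutants, a log2 fold change of −0.02 (95% interval −0.17 to 0.13). *usp4* had 0.02 (−0.15 to 0.18) and *usp33* −0.02 (−0.21 to 0.16). For these 3 genes a change of more than 0.21 in either direction lies outside the interval. *usp36*, whose product acts in the nucleolus in human cells, had 0.12 (−0.09 to 0.33), *usp25*, the closest relative of *usp28*, 0.09 (−0.08 to 0.26) and *usp40* −0.15 (−0.39 to 0.09). *usp32* (0.27, 0.02 to 0.51) and *usp37* (0.22, 0.01 to 0.43) had unadjusted intervals above 0 and overlapping groups. Members with fewer reads were less precise. *usp11* had 204, 199 and 239 counts in siblings and 134, 240 and 221 in mutants (−0.10, −0.52 to 0.32), and *usp53b* had 63, 41 and 74 and then 37, 82 and 87 (0.21, −0.50 to 0.93). In the lettered pairs, *usp2b* (0.10, −0.78 to 0.97), *usp54a* (0.09, −0.50 to 0.67), *usp54b* (−0.07, −1.02 to 0.87) and *usp43b* (−0.22, −0.91 to 0.47) all had intervals that reach over 0. The interval of the difference between *usp2a*, which rose, and *usp2b* was not computed. Over all 35 tested members that did not pass, the 95% interval stayed within 1 on either side of 0 in 32 and within 0.5 in 18.

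Genes of related functions were listed with earlier results of these data known. Of 34 tested deubiquitinase genes outside the USP family, 1 rose and 2 fell, with a median log2 fold change of −0.07, where 5.58% of all tested genes were higher and 4.49% lower. Counts this small are near those shares. The histone H2A deubiquitinase gene *mysm1* rose (0.59, adjusted p = 0.00658 by edgeR). *otud3* (−0.70, adjusted p = 0.0192) and *otud7b* on chromosome 16 (−0.84, adjusted p = 0.0494), both of the ovarian tumour class, fell. The call of *otud3* was lost without any 1 sibling library or mutant replicate 3, and that of *otud7b* in all fits without a library except that without mutant replicate 2. Of 24 tested partners of USPs, 4 rose and 1 fell, with a median of 0.04, beside the same shares of all tested genes. DESeq2 called 5 higher and 2 lower, adding *wdr20a* (edgeR log2 fold change 0.54) and *kat2a* of SAGA (−0.55). Besides *mdm2* these were *supt7l* of SAGA (2.47, adjusted p = 5.6e-06), the endosomal *stam2* (0.38, adjusted p = 0.0152), *g3bp2* of stress granules (0.37, adjusted p = 0.0252) and, lower, *tada2b* of SAGA (−0.50, adjusted p = 0.0329). *stam2* missed the threshold when sibling replicate 1, sibling replicate 2 or mutant replicate 3 was left out. Among the 6 fits without a library, the call of *g3bp2* held only without mutant replicate 2 and that of *tada2b* only without mutant replicate 1. The genes of the module that holds Usp22 in SAGA, *atxn7* (−0.03), *atxn7l3* (0.12) and, on chromosome 16, *eny2* (0.06), did not pass. Of 10 tested genes for ubiquitin precursors and E1-type enzymes, none passed with edgeR, with a median log2 fold change of 0.0032. The precursor gene *ubc* was the one with an unadjusted p under 0.05 and passed with DESeq2. It had 778 CPM in siblings and 630 in mutants (edgeR adjusted p = 0.0743).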

How the data were processed

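Per the labels, total RNA was made into libraries with the NEBNext Ultra kit, which does not mark strand. According to the submitters' processing notes, CASAVA 1.8, HISAT2 2.0.5 and featureCounts 1.5.0-p3 were used with GRCz11. The authors deposited whole-number counts per gene, and FPKM per gene, which equal counts over gene length and one constant per library, 0.935 to 1.05 times its count total.

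For the test, edgeR 4.0.16 (R 4.3.3) was run with filterByExpr and TMM factors, comparing mutants and siblings by quasi-likelihood without further terms, and Benjamini-Hochberg adjustment ran over 21876 genes (threshold 0.05). CPM were scaled to the TMM-adjusted total, or to the plain total for summed markers, listed partners and the family sum. SE is the absolute log2 fold change over the square root of F, and 95% intervals are unadjusted. The common biological coefficient of variation was 15.5%. The procedure was tested on simulated data. Members, lists and role groups were chosen with earlier results of these data known. Named in full were *usp22*, *usp5*, *prpf31* and members past the threshold, and with a level or fold change the extremes of level, members on chromosome 16, those nearest the threshold, those that failed the filter, numbered pairs and members without overlap. *p3h3*, *pafah1b3*, *cxcr3.3*, *lpcat3*, *med20*, *usp13*, *usp3*, *usp44* and further members that did not pass, *atxn7*, *atxn7l3*, *eny2*, *ubc*, *wdr20a*, *kat2a* and the genes given as overlapping a member were named for function or position after their values were seen. A partner gene and an overlapping gene are not reported here. Of 45 member symbols, 40 were the same in the table of gene names. Alternatives were DESeq2 1.42.0, other size factors (RLE, upper quartile), all genes kept, a minimum of 50 counts in 3 libraries, the replicate block, limma 3.58.1 on log2 of FPKM plus 1 (with and without a minimum of 1 FPKM in 3 libraries) or plus 0.1, chromosome 16 dropped, and each library dropped in turn. Figures were drawn with matplotlib 3.10.9.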

Additional observations from a re-analysis of the deposited data

How the results depend on the processing

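Without 1 library, 1 to 6 members rose and 1 or 2 fell. With the replicate block 2 members rose, with limma on log2(FPKM + 1) without a filter 2 rose, and with chromosome 16 left out 0 fell, since *usp5* lies there. Of all genes, 698 were higher with the block and 885 with that limma fit, against 1220 in the main edgeR test. Under the other alternatives 4 to 6 rose and 1 fell. Same-numbered libraries had correlations of −0.07, −0.12 and −0.04 in their deviations from the group means, so no shared replicate effect was seen. Whether same-numbered pools shared parents or handling is not stated, and these correlations cannot decide it. With the block, *usp2a* (adjusted p = 0.0527 from edgeR), *usp42* (0.0587) and *usp48* (0.124) lost their calls, and the fold changes of *prpf31* (−0.66), *usp5* (−3.72) and *usp22* (0.36) were those of the fit without it. *usp48* was also lost with upper-quartile factors (0.0739), no filter (0.0546), limma (0.0865 to 0.129) and chromosome 16 left out (0.0518). *usp49* and *usp42* were lost with limma without a filter (0.0674 and 0.0733), and *usp38* passed with DESeq2 (0.0290), RLE factors (0.0458) and the filter of 50 counts (0.0469). On the log2(FPKM + 1) scale, which understates the change of low genes, the fold change of *usp5* was −2.16. *usp45* changed sign without sibling replicate 3 (0.13) and stayed negative without each other library (−0.38 to −0.02). Of 23 other tested members, 14 changed sign under at least 1 alternative and none was called. Members under 1 FPKM rest on few counts, which limits their precision.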

Other observations

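Genes for related proteases that the rule on symbols left out were read from the same fit. *uspl1*, whose human homolog cuts SUMO rather than ubiquitin and is found in Cajal bodies, had 176, 174 and 185 counts in siblings and 1239, 1367 and 1363 in mutants. Its log2 fold change was 2.91 with an edgeR adjusted p = 1.05e-07 and an SE of 0.0879, higher in 3 of 3 mutant libraries and past the threshold whichever library was left out. USP34 had 568, 538 and 508 counts in siblings and 628, 865 and 844 in mutants (log2 fold change 0.55, adjusted p = 0.00800 from edgeR), which also held without each library and missed the threshold with limma on log2(FPKM + 1) without a filter (0.0647). The gene annotated as USP53 (1 of many) had 189, 145 and 196 counts in siblings and 111, 167 and 183 in mutants (−0.19, adjusted p = 0.595 from edgeR). A gene without a symbol on an alternate contig is also described as a ubiquitin-specific protease. It had 130, 130 and 100 counts in siblings and 548, 846 and 953 in mutants, and no test value of it is given here.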
